A study of Mus musculus with 2 samples.

Results

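Neural miRNA genes, 10 in number, were followed in facial tissue of the mouse embryo: the single-locus gene Mir137, the 2-locus families Mir138 (Mir138-1 and Mir138-2), Mir128 (Mir128-1 and Mir128-2) and Mir218 (Mir218-1 and Mir218-2), and the 3-locus family Mir9 (Mir9-1, Mir9-2 and Mir9-3). They were taken by name from the gene identifiers of the count files. Of the 10 genes, 9 had a line among the 1973 miRNA genes of the files, and 8 reached 10 counts in each library. Mir9-2 had a line with 0 counts, and Mir9-1 had no line under the identifier used here. Only 1 group was sequenced, as biological replicates 1 and 2, and the values below are levels and their spread without a contrast between conditions.

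The tissue was the facial prominence, the embryonic swellings that become the face, of B6NCrl mice at embryonic day 13.5. Each sample pooled male and female embryos, and the labels do not say how many embryos went into a pool. No treatment or engineered allele is named for either sample. RNA under 30 bases was sequenced. Replicate 1 had 4562135 counts on the strand of annotated miRNA genes and replicate 2 had 5771249. Levels are CPM, the counts of a gene per 1000000 of these counts. An miRNA read covers a whole mature molecule, so levels were compared between genes without a correction for length. Whether different sequences entered the libraries equally well was not tested. In bulk tissue, fewer cells of a type and less RNA per cell cannot be told apart.

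A miRNA gene is transcribed as a hairpin, from which Drosha and Dicer cut a short duplex. The 2 sides of the duplex are the 5p and 3p arms, and usually one of them is kept by an Argonaute protein and guides it to messenger RNAs through the seed, bases 2 to 8. The genes followed here are known from the nervous system. Mir9 acts in neural progenitors and the timing of neuron production, Mir137 and Mir128 in neuron maturation and excitability, Mir138 at dendritic spines, and Mir218 in motor neurons, which in the head include those of cranial nerves. The facial prominence holds ends of cranial nerves and, in the nasal part, olfactory epithelium, while the cell bodies of brain neurons lie outside it.

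The mature sequences decide which reads could be counted, so they are shown before the levels. Reads that match several genomic places form a class of their own in the files, 30.7% of all reads in replicate 1 and 31.0% in replicate 2, and gene counts hold uniquely placed reads. All 10 genes matched the RefSeq table (GRCm38.p6), in which they carry 13 distinct mature sequences. Both arms of Mir137 were found in 1 hairpin only among the 1005 hairpins of that table, and so a read of either arm points to 1 annotated gene. Seeds are in capitals here and in the next sequences.
mmu-miR-137-3p: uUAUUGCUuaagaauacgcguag
mmu-miR-137-5p: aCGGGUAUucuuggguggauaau

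In each 2-locus family, 1 arm was identical between the copies and the other arm differed. The shared arm, which is the one usually described as functional, was found in both hairpins of its family and in no other hairpin of the table. These 3 sequences are the ones that a read cannot assign to a copy unless it runs past their ends.
mmu-miR-138-5p: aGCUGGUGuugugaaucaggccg
mmu-miR-128-3p: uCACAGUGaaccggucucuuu
mmu-miR-218-5p: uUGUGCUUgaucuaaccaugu

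The opposite arms are printed because they separate the copies. Each of these 6 sequences was found in 1 hairpin of the table.
mmu-miR-138-1-3p: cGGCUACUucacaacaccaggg
mmu-miR-138-2-3p: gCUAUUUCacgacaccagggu
mmu-miR-128-1-5p: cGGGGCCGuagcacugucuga
mmu-miR-128-2-5p: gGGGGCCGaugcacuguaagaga
mmu-miR-218-1-3p: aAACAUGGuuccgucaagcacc
mmu-miR-218-2-3p: cAUGGUUCugucaagcaccgcg

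The opposite arms of Mir128-1 and Mir128-2 had the same seed, while those of Mir138 and of Mir218 had different seeds. No seed was shared between families. Other genes of the table with one of these seeds were Mir7002, with the seed of miR-218-5p, and Mir496b, with that of miR-218-1-3p. Both had 0 counts in each library.

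Mir9 differed from the rest, because both of its arms were identical in all 3 copies. The hairpins are printed with these arms in capitals, to show how little of each sequence marks the copy.
Mir9-1: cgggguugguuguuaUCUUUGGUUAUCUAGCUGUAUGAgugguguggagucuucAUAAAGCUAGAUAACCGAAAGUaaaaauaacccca
Mir9-2: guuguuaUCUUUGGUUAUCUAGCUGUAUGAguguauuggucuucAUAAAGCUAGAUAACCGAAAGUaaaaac
Mir9-3: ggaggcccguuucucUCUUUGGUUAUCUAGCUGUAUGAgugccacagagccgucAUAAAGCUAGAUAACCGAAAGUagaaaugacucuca

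The shared arms made up 45 of the 72 bases of Mir9-2, 45 of 89 in Mir9-1 and 45 of 90 in Mir9-3. Between Mir9-1 and Mir9-2 the identity ran on past the arms, giving an unbroken run of 33 bases around each arm, longer than the sequenced RNA. Mir9-3 shared runs of 26 bases around miR-9-5p and 25 bases around miR-9-3p with either of the others. A read that holds all of miR-9-3p and 2 more bases at its 3′ end therefore separates Mir9-3, whereas Mir9-1 and Mir9-2 first differ after 5 shared bases on that side. In the other families the shared run was 24 bases for miR-138-5p, 23 for miR-128-3p and 22 for miR-218-5p. The run of miR-138-5p, and that of miR-9-5p in Mir9-1 and Mir9-2, reached the annotated 5′ end of a hairpin. Their lengths are therefore minimums. The files do not say which arm or which end of it a counted read held, so the part of these sequence differences in the counts was not tested.

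**Figure D1:**
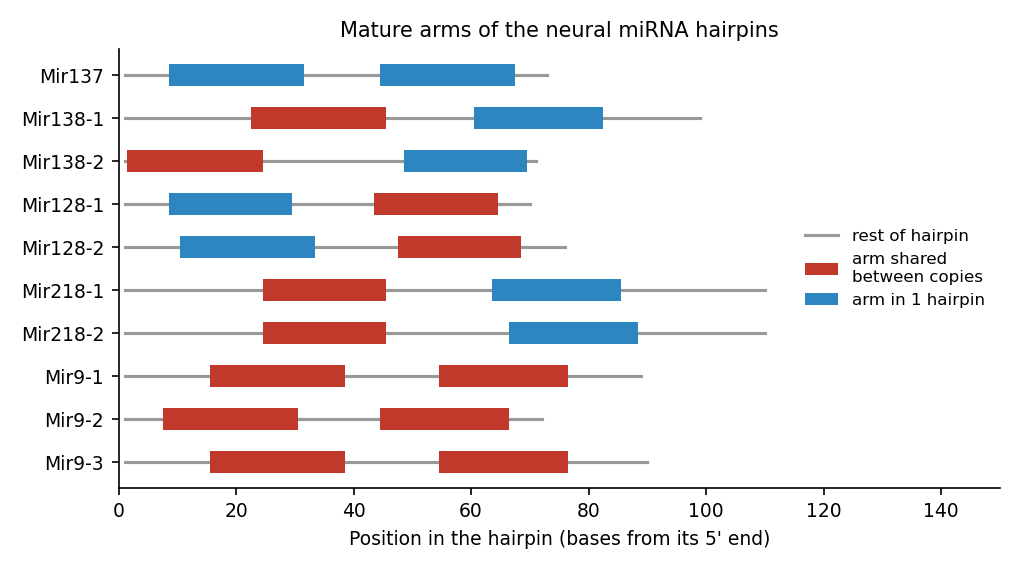
Position of the mature arms (boxes) in each hairpin (grey line), in bases from the 5′ end of the hairpin. Red boxes are arms whose sequence is shared between copies and blue boxes are arms found in 1 hairpin; Mir137 has 2 blue boxes, the 2-locus genes have 1 of each, and the Mir9 genes have only red ones.

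The 10 genes lie on 8 chromosomes and fall into 2 kinds of host by GENCODE release M21 (GRCm38). The Mir128 and Mir218 genes sit in introns of protein-coding genes, on the strand of the host. Mir128-1 (chr1:128202361-128202430, plus strand) lies in R3hdm1, and Mir128-2 (chr9:112118636-112118711, minus strand) lies in Arpp21, a gene for a phosphoprotein of neurons. Mir218-1 (chr5:48223942-48224051, plus strand) lies in Slit2, and Mir218-2 (chr11:35616816-35616925, plus strand) lies in Slit3. Slit2 and Slit3 encode secreted guidance cues for growing axons. Each of these hairpins was intronic in every host transcript that spans it, in 2 transcripts of R3hdm1, 9 of Arpp21, 7 of Slit2 and 1 of Slit3.

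The other 6 genes lie in transcripts that are not annotated as coding. Mir137 (chr3:118433857-118433929, plus strand) lies in an exon of Gm26871. Mir138-1 (chr9:122682876-122682974, plus strand) lies in an exon of Gm47135, and Mir138-2 (chr8:94324311-94324381, plus strand) in an exon of C78859. Mir9-1 (chr3:88215598-88215686, plus strand) lies in introns of Gm3764, and Mir9-3 (chr7:79505264-79505353, plus strand) in introns of Mir9-3hg. Mir9-2 (chr13:83738814-83738885, plus strand) lies in C130071C03Rik, in an exon of 1 transcript and an intron of another. Host messenger RNAs were outside the size range of the libraries. Of other miRNA genes within 10 kb on the same strand, Gm24155 beside Mir137 had 0 counts, and Mir3093 beside Mir9-1 had 0 and 1 counts.

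Together the 9 genes with a line held 3683 of the counts of replicate 1 and 4326 of those of replicate 2. That was 0.0807% in replicate 1 (95% Wilson interval 0.0782 to 0.0834) and 0.0750% in replicate 2 (0.0728 to 0.0772), or 0.0778 ± 0.00408% (SD, n = 2). All intervals cover counting error of reads only. Reads copied by PCR are not independent molecules, so the intervals may be too narrow even for that error. Mir137, whose arms were each found in 1 hairpin, gave the largest part of these counts, 39.1% in replicate 1 and 40.5% in replicate 2. The Mir138 pair gave 28.4% and 34.0%, the Mir128 pair 23.8% and 15.8%, the Mir218 pair 7.66% and 8.92%, and Mir9 1.06% and 0.717%. The order of the families was the same in both libraries. It is an order of uniquely placed reads only, and Mir137 alone has no arm shared between copies.

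Mir137, which is required for normal brain development, had 1439 counts (315 CPM) in replicate 1 and 1753 counts (304 CPM) in replicate 2. Its level was 310 ± 8.26 CPM (SD, n = 2). By uniquely placed reads it stood above the other members in each library by more than their Wilson intervals. Among the miRNA genes of the files it ranked 133rd in replicate 1 and 132nd in replicate 2. The genes most like it in level over the 2 libraries, by distance on the scale of log2(CPM) with 0.5 counts added, were Mir135b (312 and 298 CPM), Mir16-2 (295 and 307 CPM) and Mir323 (332 and 272 CPM).

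The 2 copies of Mir138 had nearly equal levels. Mir138-1 had 512 counts (112 CPM) in replicate 1 and 660 counts (114 CPM) in replicate 2. Mir138-2 had 534 counts (117 CPM) in replicate 1 and 813 counts (141 CPM) in replicate 2. Their levels were 113 ± 1.51 and 129 ± 16.8 CPM (SD, n = 2), which did not differ beyond the spread of Mir138-2.

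The Mir128 copies, from the introns of R3hdm1 and Arpp21, differed from each other and between libraries. Mir128-1 had 619 counts (136 CPM) in replicate 1 and 520 counts (90.1 CPM) in replicate 2. Mir128-2 had 258 counts (56.6 CPM) in replicate 1 and 163 counts (28.2 CPM) in replicate 2. Both were lower in replicate 2, and the lower value of Mir128-1 lay above the higher value of Mir128-2. The mean levels were 113 ± 32.2 and 42.4 ± 20.0 CPM (SD, n = 2).

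The Mir218 copies, from the introns of Slit2 and Slit3, differed from each other in both libraries. Mir218-2 in Slit3 had 240 counts (52.6 CPM) in replicate 1 and 297 counts (51.5 CPM) in replicate 2. Mir218-1 in Slit2 had 42 counts (9.21 CPM) in replicate 1 and 89 counts (15.4 CPM) in replicate 2. The values of the copies did not overlap, with means of 52.0 ± 0.810 and 12.3 ± 4.39 CPM (SD, n = 2).

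Mir9, one of the most abundant miRNA families of the embryonic brain, was nearly without uniquely placed reads. Mir9-3 had 39 counts (8.55 CPM) in replicate 1 and 31 counts (5.37 CPM) in replicate 2, the lowest level of the 8 genes above the count minimum at 6.96 ± 2.25 CPM (SD, n = 2). Mir9-2 had 0 counts in both libraries. A count of 0 allows up to 3 counts of uniquely placed reads, 0.658 CPM in replicate 1 and 0.520 CPM in replicate 2, and it sets no limit on the level of Mir9-2 RNA, whose arms have several places. The strand opposite Gm25641 is the strand of Mir9-1, and 8 and 13 counts stood there in replicates 1 and 2, 1.75 and 2.25 CPM. By uniquely placed reads the 3 copies thus came in the order Mir9-3, the locus of Mir9-1, and Mir9-2. The part of the sequence around the arms in this order was not tested, nor whether the counts opposite Gm25641 came from Mir9-1.

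**Figure D2:**
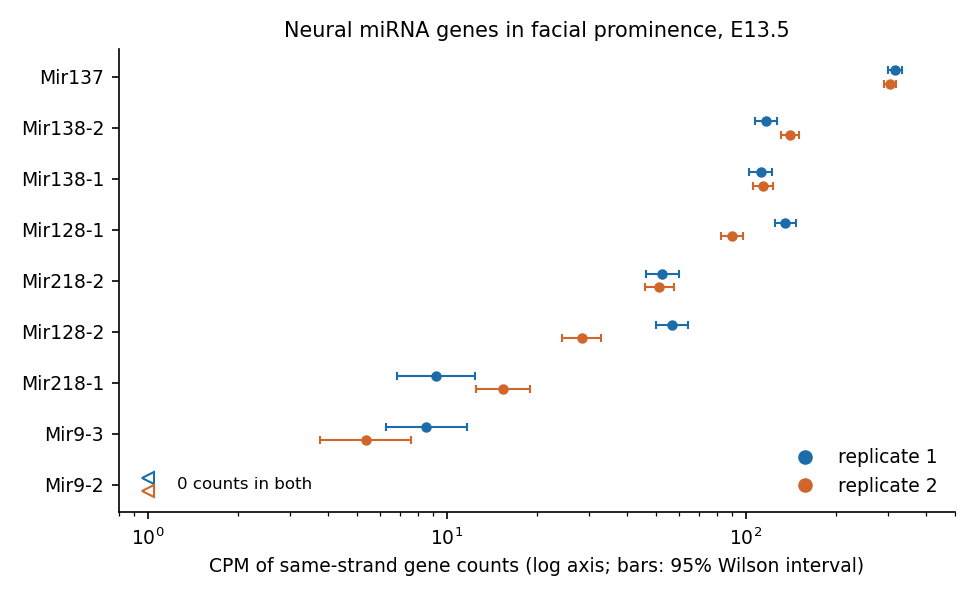
CPM (log axis) of the 9 neural miRNA genes with a line in the files, in replicate 1 (blue) and replicate 2 (orange), with 95% Wilson intervals as bars. Mir137 stands highest at 315 and 304 CPM, Mir138-1, Mir138-2 and Mir128-1 lie close together, and the open triangles mark Mir9-2, which had 0 counts.

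In the order of mean level, Mir138-2, Mir138-1 and Mir128-1 were neighbours that did not differ beyond their spread, since their ranges over the libraries overlapped or lay within 1 SD. Mir218-2 and Mir128-2 changed places, with Mir128-2 higher in replicate 1 and Mir218-2 higher in replicate 2. Mir218-1 and Mir9-3 were the lowest genes with counts in both libraries. The median level of the 8 genes was 84.4 CPM in replicate 1 and 70.8 CPM in replicate 2, while over all 360 genes with at least 10 counts in both libraries it was 111 and 114 CPM. Mir137 lay above 63.3% of these 360 genes in mean level, Mir138-2 above 52.5%, and Mir9-3 above 13.1%. These are levels of uniquely placed reads. Every member but Mir137 has an arm shared with another copy, and how far this lowered its place was not tested.

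The genes nearest in level to the other members were spread over unrelated families. Mir5099 (124 and 112 CPM) was nearest to Mir138-1, Mir221 (117 and 127 CPM) to Mir138-2, Mir92-2 (134 and 108 CPM) to Mir128-1 and Mir539 (48.4 and 30.8 CPM) to Mir128-2. Mir3061 (9.64 and 13.0 CPM) was nearest to Mir218-1, Mir592 (52.6 and 54.6 CPM) to Mir218-2 and Mir7654 (8.55 and 5.54 CPM) to Mir9-3. No member was the nearest gene of another member.

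The ratio of the copies within a library needs no scaling between libraries. In the Mir138 pair, Mir138-2 held 51.1% of the counts of replicate 1 (95% Wilson interval 48.0 to 54.1) and 55.2% of those of replicate 2 (52.6 to 57.7). This was a ratio of Mir138-2 to Mir138-1 of 1.04 in replicate 1 and 1.23 in replicate 2. An equal share lay within the interval in replicate 1 and outside it in replicate 2.

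In the Mir128 pair, Mir128-1 held 70.6% (67.5 to 73.5) in replicate 1 and 76.1% (72.8 to 79.2) in replicate 2. The ratio of Mir128-1 to Mir128-2 was 2.40 and 3.19. The copy in R3hdm1 was the higher one in both libraries, and the intervals of the libraries overlapped only at their edges.

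In the Mir218 pair, Mir218-2 held 85.1% (80.5 to 88.8) in replicate 1 and 76.9% (72.5 to 80.9) in replicate 2. The ratio of Mir218-2 to Mir218-1 was 5.71 in replicate 1 (4.12 to 7.92) and 3.34 in replicate 2 (2.63 to 4.23). The copy in Slit3 was thus the higher one in both libraries. Mean shares of the higher copy were 53.1 ± 2.93% for Mir138-2, 73.4 ± 3.93% for Mir128-1 and 81.0 ± 5.77% for Mir218-2 (SD, n = 2). These shares cannot tell transcription of the loci from a different yield of locus-specific reads, such as those of the opposite arm.

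Between the libraries the copy ratio moved by 1.18-fold in the Mir138 pair, 1.33-fold in the Mir128 pair and 1.71-fold in the Mir218 pair. The files held 21 pairs of genes with a shared mature sequence and at least 10 counts in both libraries, and their median movement was 1.18-fold. The movement was larger than that of 9 of the 21 pairs for Mir138, of 15 for Mir128 and of 17 for Mir218. Some of the 21 pairs have a gene in common, and the 3 neural pairs are among them.

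**Figure D3:**
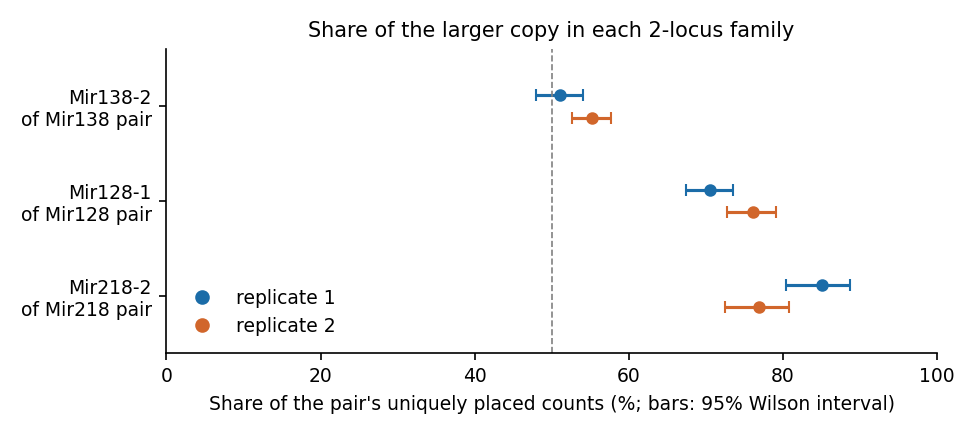
Share (%) of the larger copy in the uniquely placed counts of each 2-locus family, in replicate 1 (blue) and replicate 2 (orange), with 95% Wilson intervals as bars and an equal share as the dashed line. Mir138-2 lies near the line at 51.1% and 55.2%, and Mir128-1 and Mir218-2 lie to the right of it in both libraries.

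The shift between replicates was tested gene by gene with a two-sided exact binomial test after TMM scaling, with Benjamini-Hochberg adjustment over all 360 genes. The test compares these 2 libraries against counting error, not conditions. Of the 8 members tested, 4 passed at an adjusted p under 0.05, where 55.0% of all tested genes passed. In replicate 1, 2 members were higher (27.2% of all tested genes were called higher there), and in replicate 2 also 2 (27.8% of all tested genes). The members were Mir128-1 and Mir128-2 in replicate 1, and Mir138-2 and Mir218-1 in replicate 2. Of the members, 4 differed by over 1.5-fold, where 16.1% of all tested genes did. These were Mir128-1, which lay just past the limit, Mir128-2, Mir218-1 and Mir9-3. They were not the same 4 as those past the test. Mir9-3 did not pass it, and Mir138-2 passed it but differed by less than 1.5-fold. Mir218-1 and Mir9-3 had the fewest counts of the tested members. The median size of the shift was 1.35-fold over the members and 1.18-fold over all tested genes.

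Mir128-2 shifted most among the members. Its log2 ratio of replicate 2 to replicate 1 was -1.0 (95% counting interval -1.29 to -0.71, adjusted p = 8.30e-12, exact binomial test), larger in size than that of 95.3% of all tested genes. Its family partner Mir128-1 moved the same way, at -0.59 (-0.76 to -0.42, adjusted p = 2.32e-11, exact binomial test), larger than 84.2% of genes. Summed over its copies, Mir128 reached 192 CPM in replicate 1 against 118 CPM in replicate 2, a 1.62-fold difference.

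Mir218-1 moved the other way, at a log2 ratio of 0.74 (0.20 to 1.31, adjusted p = 0.0130, exact binomial test), while its partner Mir218-2 stood at -0.03 (-0.28 to 0.22, adjusted p = 0.867, exact binomial test). Mir138-2 was also higher in replicate 2, at 0.27 (0.11 to 0.43, adjusted p = 0.00212, exact binomial test), and Mir138-1 stood at 0.03 (-0.14 to 0.20, adjusted p = 0.841, exact binomial test). In Mir138 and Mir218 1 copy passed the test and the other did not, and whether the copies of a pair shifted by different amounts was not tested. The intervals of the copy share in the 2 libraries met only at their edges for Mir218, as for Mir128. Mir9-3 had a log2 ratio of -0.67 (-1.40 to 0.05, adjusted p = 0.0909, exact binomial test), and its counts of 39 and 31 allow a wide interval.

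Mir137 had a log2 ratio of -0.05 (-0.16 to 0.05, adjusted p = 0.374, exact binomial test), smaller in size than that of most tested genes, with 13.3% of genes below it. The neural genes therefore did not move as a block between the libraries. Summed over the 9 genes, the level was 807 CPM in replicate 1 and 750 CPM in replicate 2, while the parts of it moved in both directions.

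**Figure D4:**
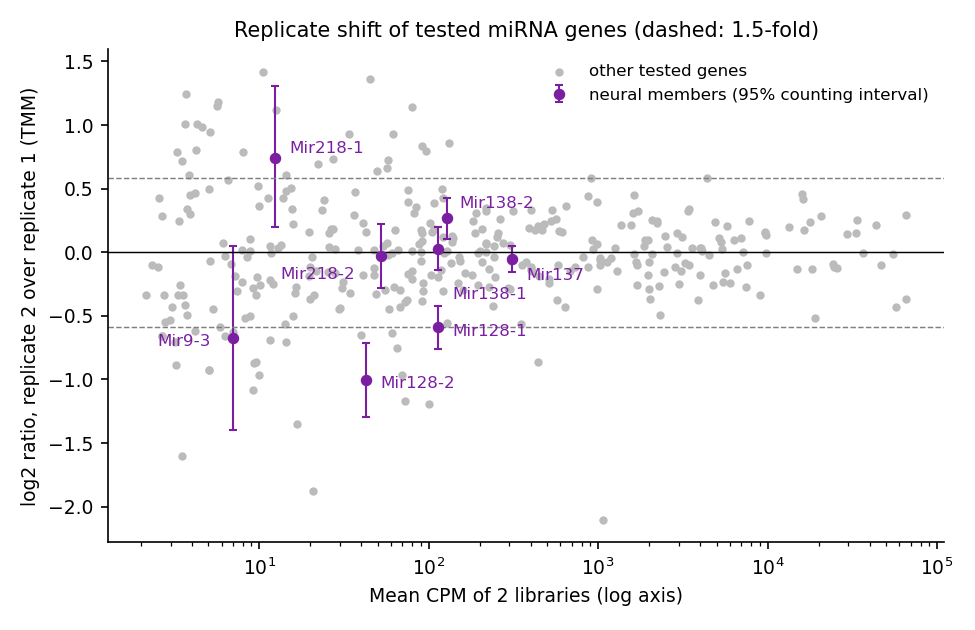
Log2 ratio of replicate 2 to replicate 1 after TMM scaling against mean CPM (log axis) for the 360 tested genes; purple points with 95% counting intervals are the 8 neural members, grey points the other genes, and dashed lines mark 1.5-fold. Mir128-2 lies lowest among the members at -1.0 and Mir218-1 highest at 0.74, with Mir137 close to 0.

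Other genes with known roles in neurons were read from a list of 22, of which 21 had a line and 17 were tested. The highest were Mir134 (1252 and 1282 CPM), which acts at dendrites, Mir135b (312 and 298 CPM), Mir132 (131 and 143 CPM), a gene induced by neuronal activity, Mir338 (86.4 and 95.8 CPM), known from oligodendrocytes, and Mir495 (74.5 and 60.6 CPM). Mir134 and Mir495 belong to the imprinted Dlk1-Dio3 domain and are not restricted to neurons. Mir124a-1 and Mir124a-3 had 0 counts in both libraries and Mir124a-2 had 1 in each. These 3 copies of Mir124, the leading miRNA of neurons, share a mature sequence, so the counts set no limit on it. Mir219b had no line.

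Of the 17 tested genes of this list, 3 were higher in replicate 2, 2 were higher in replicate 1 and 12 did not pass the test. Of all 360 tested genes, 27.8% were higher in replicate 2 and 27.2% in replicate 1. The median log2 ratio of the list was 0.15, against -0.01 over all tested genes. The genes of the list higher in replicate 2 were Mir7b (log2 ratio 0.93), Mir488 (0.74) and Mir219a-1 (0.47). Those higher in replicate 1 were Mir219a-2 (-1.88) and Mir495 (-0.30). They were named after their values were seen. The 2 copies of Mir219a thus moved in opposite directions, and Mir219a-2, at 32.4 and 8.84 CPM, fell by more from replicate 1 to replicate 2 than Mir128-2 did.

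Beside the shifts of the neural genes, markers of other parts of the head and body also differed between the libraries. So did 55.0% of all 360 tested genes, 27.2% being higher in replicate 1 and 27.8% in replicate 2. The eye and pituitary list shares Mir7b and Mir7-2 with the list of other neural genes. It was led by Mir375 (745 and 1009 CPM) and Mir204 (93.4 and 170 CPM). Its genes summed to 925 CPM in replicate 1 and 1274 CPM in replicate 2. Of its 5 tested genes, 3 were higher in replicate 2 and 1 in replicate 1. The Hox cluster list, of genes expressed behind the face, summed to 4655 CPM in replicate 1 and 2451 CPM in replicate 2, with 3 of 5 tested genes higher in replicate 1 and 0 in replicate 2. It was led by Mir10b (2722 and 1931 CPM) and Mir10a (1737 and 404 CPM). Striated muscle genes summed to 632 and 404 CPM, led by Mir206 (570 and 314 CPM) and Mir208b (39.0 and 60.6 CPM). Mir1a-1, Mir133a-1 and Mir133a-2 had 0 counts, and Mir1a-2 had no line. Counts hold uniquely placed reads only, so a count of 0 sets no limit on RNA whose reads have several places. Of the 5 tested muscle genes, 3 were higher in replicate 2 and 1, Mir206, was higher in replicate 1, with a median log2 ratio of 0.64 against the fall of the sum. The part of these differences in the shifts of Mir128, Mir138-2 and Mir218-1 was not tested.

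The neural counts were small beside those of the epithelia and mesenchyme of the face. The sensory list of Mir183, Mir96 and Mir182, genes of hair cells and other sensory cells that include those of the nose, summed to 21458 CPM in replicate 1 and 24198 CPM in replicate 2, and all 3 were higher in replicate 2. The list of olfactory and other epithelium summed to 63539 and 63309 CPM, and these near-equal sums held genes that moved in opposite directions. All 7 of its genes passed the test, 5 higher in replicate 2, among them Mir429 (log2 ratio 0.46), and 2 higher in replicate 1, among them Mir203 (-0.51), with a median log2 ratio of 0.39. The list of mesenchyme and cartilage, led by Mir214 and Mir140, summed to 66010 and 70945 CPM, with 6 of 8 genes higher in replicate 2 and 2 in replicate 1. Its summed level was 88.0 times the summed level of the neural members by means over the libraries. These sums leave out multiply placed reads, and how many each list lost was not tested. Of all 360 tested genes, 55.0% passed the test, 27.8% being higher in replicate 2 and 27.2% in replicate 1. The test covers counting error only, so at high counts a small shift passes, as for Mir214 at 1.09-fold (122379 and 141908 counts). The genes of these lists are also active in more than 1 tissue, so a level cannot be ascribed to nerve, ganglion, olfactory or brain cells from these counts.

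**Figure D5:**
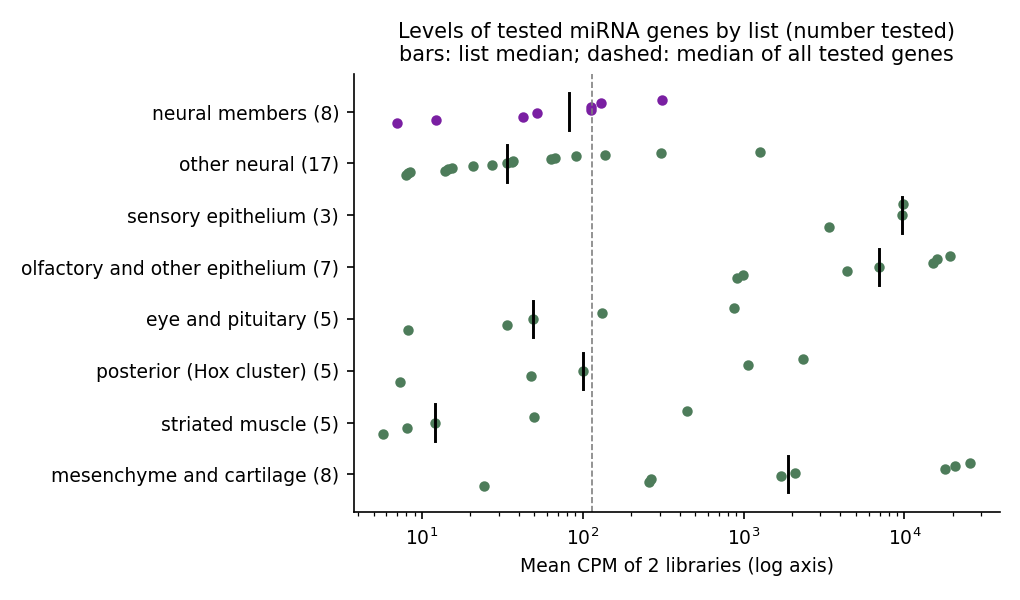
Mean CPM of the 2 libraries (log axis) of each tested gene, by list, with the number tested in brackets, the list median as a black bar and the median of all tested genes as the dashed line. The 8 neural members lie between 6.96 and 310 CPM, and the genes of the sensory and epithelial lists lie above the highest of them.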

How the data were processed

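MicroRNA sequencing of 2 libraries of 1 group was analysed. The deposited files give whole-number counts of reads for each miRNA gene, made by the authors on mm10 with GENCODE M4, per the deposited description files. The aligner and the trimming of reads were not given in the sources used here. The files have no header: their columns were read as unstranded, same-strand and opposite-strand counts, and in all 1973 gene lines the first was the sum of the others. The same-strand column was used. Lines for reads of no gene (unmapped, multiply placed or outside genes), 55.9% of reads in each file, stayed out of totals.

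Names and positions came from GENCODE M21 (GRCm38), which matched 1894 of 1973 identifiers, and sequences from RefSeq. Genes were looked up by their M21 identifiers only, and the 79 unmatched identifiers were not searched for older ones of genes without a line. Genes with at least 10 counts in both libraries were tested between libraries by the exact binomial test, two-sided (scipy 1.17.1), after TMM scaling (edgeR 4.0.16, R 4.3.3), with Benjamini-Hochberg adjustment at 0.05. The test was checked on simulated counts that held counting error only, so the check does not cover spread between samples beyond that error. Spread between these samples may in part be technical. The members, lists and settings were chosen with earlier results of these data known, except 1 setting added after seeing the data. Named were all members, the nearest tested gene of each (3 for Mir137), the 5 highest and the uncounted genes of the neural list, miRNA genes within 10 kb and up to 2 leading genes of each other list. Alternatives were the unstranded column, other totals, DESeq2 1.42.0 size factors, other count minimums and fold limits, and leaving out each library.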

Additional observations from a re-analysis of the deposited data

Results flagged for a closer look

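Counts outside the analysed column were found at the locus of Mir9-1. Gm25641 overlaps Mir9-1 on the other strand, and its opposite-strand counts were 8 in replicate 1 and 13 in replicate 2, more than the 3 counts set as the floor for a gene at 0. Its same-strand counts were 0 in both. Mir9-1 itself has no line under its M21 identifier, and the part of its reads in these counts was not tested.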

How the results depend on the processing

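With all reads of a file as the total, the share of the neural genes was 0.0343% and their median level 34.2 CPM, against 0.0778% and 77.6 CPM (the mean of the library medians). Without the most abundant gene in the total, the share was 0.0833%. Leaving out each library in turn gave shares of 0.0750 to 0.0807% and median levels of 70.8 to 84.4 CPM, and copy shares of 51.1 to 55.2% (Mir138-2), 70.6 to 76.1% (Mir128-1) and 76.9 to 85.1% (Mir218-2). A 2-fold limit left 1 member and 17 of all tested genes in place of 4 and 58, and a 1.2-fold limit took in 163 of all genes and 5 members. Adding the counts opposite Gm25641, a setting chosen after seeing the data, gave a share of 0.0780%. DESeq2 size factors, total counts, the unstranded column and a count minimum of 1 each left 4 members past the test, and a minimum of 100 left 3 of fewer genes tested. All 38 values of the replicate shift under these settings kept their direction and side of the threshold. The shift could not be computed without a library. Depth limits Mir218-1 and Mir9-3, with 42 and 31 counts in their smaller library.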
